A study of Homo sapiens with 6 samples.

Results

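The genes described here encode subunits of the SWI/SNF chromatin remodelling complexes and of the Polycomb complexes. They were taken as a list of 56 symbols, 27 of SWI/SNF, 10 of the Polycomb repressive complex PRC2, 16 of PRC1 and 3 of the Polycomb deubiquitinase PR-DUB. All 56 matched exactly 1 gene with a quantified transcript, out of 34834 such genes in the series. Their RNA was measured in SKOV3, an established human ovarian cancer cell line that is known to carry an inactivating mutation of ARID1A. Cells received 50 nM of a pool of 4 siRNAs against the long non-coding RNA DNM3OS (DNM3OS knockdown, 3 libraries) or 50 nM of a pool of non-targeting siRNAs (control, 3 libraries), with a lipid transfection reagent, and were profiled at 48 h. The parental line is the same in both groups, and no untransfected cells were analysed here. Total RNA depleted of ribosomal RNA was sequenced from libraries made with a stranded kit. The labels do not say whether the 3 libraries of a group came from separate cultures, so that the p-values below measure the spread between these libraries, which may be technical.

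SWI/SNF complexes use ATP to slide or evict nucleosomes and thereby open DNA. Each complex holds SMARCA4 or SMARCA2 as its motor and is built on SMARCC, SMARCD and ACTL6 subunits. Canonical complexes add ARID1A or ARID1B and a DPF protein, the polybromo form adds ARID2, PBRM1, BRD7 and PHF10, and a non-canonical form adds BRD9 with BICRA or BICRAL. Polycomb complexes act in the opposite direction. PRC2 methylates histone H3, PRC1 ubiquitinates histone H2A through RING1 or RNF2, and PR-DUB, in which BAP1 works with ASXL proteins, removes that ubiquitin. SWI/SNF subunits are often mutated in ovarian cancers of the clear cell type.

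The libraries were shallow, with between 1523046 and 1868325 estimated counts on annotated genes, and the levels of common housekeeping genes were low. The translation factor gene EEF1A1 had between 144 and 1340 counts in a library, GAPDH between 27 and 414 and ACTB between 36 and 181, whereas PLLP alone had between 275289 and 373811. Knockdown replicate 1 had the lowest count of all 3 housekeeping genes. The strand setting used in counting is not given in the sources used here, and the level of a gene below is therefore the level assigned to its transcripts, not a proven level of its sense RNA. No annotated transcript of DNM3OS was among those quantified, so that the knockdown itself was not measured by these values. Of 10 ovarian epithelial markers, KRT8 had between 1195 and 2566 counts, ERBB2 between 311 and 872 and KRT18 between 38 and 165. MUC16, MSLN and WT1 had at most 4. Between 82.4% and 91.6% of the 10 markers' counts in a library lay on transcripts that overlap an exon on the other DNA strand. Transcripts annotated as retained introns held between 50.95% and 76.1%. The 10 markers summed to between 978 and 2285 CPM (a count relative to TMM-adjusted depth) in the knockdown and to between 1139 and 1754 CPM in the controls. Of 8 markers of blood, vessel and stromal cells, CD3E and VWF had at most 2 counts and PTPRC between 91 and 148. These 8 summed to between 177 and 228 CPM in the knockdown and between 178 and 208 CPM in the controls. All libraries came from the same cell line, so that these sums are not shares of cell types. Which strand the counts on the marker genes came from was not tested.

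Most of the counts given to SWI/SNF and Polycomb genes lay on transcripts that share exonic bases with an annotated exon on the other DNA strand. Such transcripts made up 98 of the 587 quantified for the 56 genes, or 16.7%, but held between 66.0% and 76.2% of the genes' counts in a library. Over all genes they were 18.0% of the transcripts and held between 52.8% and 61.4% of the counts, or between 42.35% and 51.9% without the 6 genes with most counts. Overlapping transcripts were longer, with a median effective length of 2006 bases against 680.5 bases for the members' other transcripts. Corrected for length, in TPM (a count divided by effective length and scaled to the library total), the share on overlapping transcripts was between 48.8% and 59.7% for the members and between 47.4% and 56.7% for all genes, or between 32.25% and 41.95% without the 6 genes with most counts. Of the 6 libraries, the members were above all genes in the 3 of the knockdown and below them in the 3 controls, by small margins whose difference between groups was not tested. The 4 members with most counts, BRD7, PHC1, RBBP4 and PCGF3, held between 48.9% and 58.5% of all member counts, and without them the members' share of counts on overlapping transcripts was between 35.4% and 45.3%, below that of all genes without the 6 leading genes in every library. In TPM the members without those 4 held between 34.3% and 45.45%, below all genes without the 6 leading genes in 4 of 6 libraries. The higher share of the members' counts thus rested on their 4 leading genes. Each of these had at least 88.99% of its counts on overlapping transcripts, so that leaving them out lowers the share by construction. The part of strand assignment in any level below was not tested.

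Coding stretches that lie under an exon of the other strand are shown for 4 members, because they are the bases at which reads of the 2 strands have the same coordinates. All letters are capitals, which mark bases that are exonic on both strands, and each is read 5′ to 3′ on the strand of the member in GRCh38. The ARID1B stretch lies at chr6:156778246-156778422 on the plus strand, under an exon of ENSG00000271551. The ACTL6A stretch lies at chr3:179583353-179583448 on the plus strand under ENSG00000272910. The BCL7C stretch lies at chr16:30893903-30893944 on the minus strand, under the microRNA gene MIR762. The CBX7 stretch lies at chr22:39133894-39134048 on the minus strand under ENSG00000279833.
ARID1B: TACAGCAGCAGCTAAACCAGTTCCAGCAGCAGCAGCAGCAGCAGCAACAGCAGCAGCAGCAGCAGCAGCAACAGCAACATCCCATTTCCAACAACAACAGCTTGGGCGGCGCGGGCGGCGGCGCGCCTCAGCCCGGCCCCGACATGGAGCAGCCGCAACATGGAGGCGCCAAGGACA
ACTL6A: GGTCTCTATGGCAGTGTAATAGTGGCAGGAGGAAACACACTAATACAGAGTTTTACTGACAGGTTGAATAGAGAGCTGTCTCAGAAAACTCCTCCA
BCL7C: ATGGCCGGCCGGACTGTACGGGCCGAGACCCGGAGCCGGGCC
CBX7: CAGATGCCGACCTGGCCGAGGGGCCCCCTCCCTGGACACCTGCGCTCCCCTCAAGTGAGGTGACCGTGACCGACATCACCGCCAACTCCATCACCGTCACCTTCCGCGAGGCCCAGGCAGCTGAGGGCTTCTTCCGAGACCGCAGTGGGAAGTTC

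The ARID1B stretch is part of the transcript that held 91.4% of ARID1B counts, and the BCL7C stretch begins with the start codon and is part of a transcript that held 55.4% of BCL7C counts. The ACTL6A stretch is in transcripts with 19.8%, 12.8% and 1.18% of ACTL6A counts. The CBX7 transcripts with the printed stretch had 0 counts in every library, and all CBX7 counts were on a retained-intron transcript. None of the 4 genes on the other strand had a quantified transcript in the files. Bases and gene models came from the hg38 genome and GENCODE.

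Of the 12 members with at least 100 counts in every library, 9 had over 20% of their counts on overlapping transcripts. Among all genes with at least 100 counts in every library, 939 were over 20% and 532 were not, so that most lay over 20% there too. In all, 19 members passed 20%, and their median was 95.1 counts a library and 65.8 TPM, against 17.8 counts and 14.9 TPM for the 36 others with a count. Over all genes with a count the same split gave medians of 28.8 counts and 16.0 TPM for 6061 genes and 7.17 counts and 5.53 TPM for 16906 genes. The higher median thus lay on the overlapping side for the members as for genes at large.

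**Figure D1:**
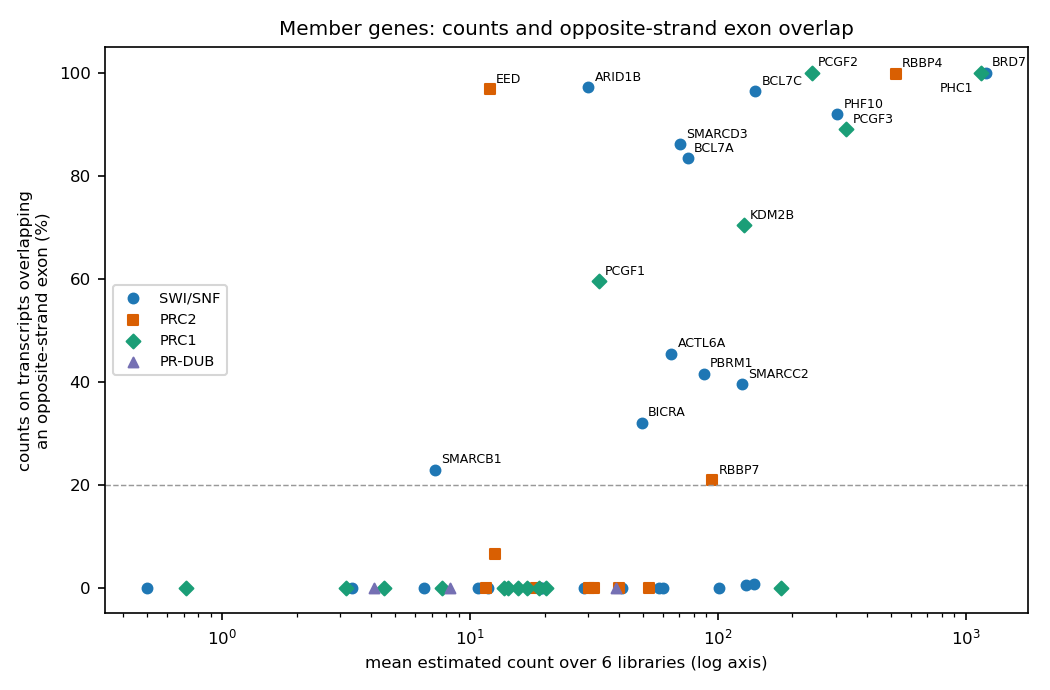
Mean estimated count over the 6 libraries (log axis) against the share of a gene's counts on transcripts that overlap an exon on the opposite strand (%), 1 point for each of the 55 members with a count, shaped by complex; the dashed line is at 20%. The members with most counts, BRD7 and PHC1, sit at 100% and 99.96%.

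BRD7, a bromodomain subunit of the polybromo complex, had the most counts of all members. It lies on chromosome 16 from 50313487 to 50368988 on the minus strand, and its 3′ end overlaps that of the adenylate cyclase gene ADCY7. Its counts were 1120, 1174 and 1249 in the knockdown and 1296, 1119 and 1290 in the controls, which overlap. Transcripts under an opposite exon held 100% of them, and the single other BRD7 transcript had 0 TPM. PHC1, a scaffold of PRC1, lies on chromosome 12 from 8913896 to 8941467 on the plus strand and shares 1107 bases at its 3′ end with M6PR, a receptor that delivers enzymes to lysosomes. PHC1 had 899, 1152 and 1273 counts in the knockdown and 1262, 1050 and 1311 in the controls. The 4 of its 14 transcripts that reach into M6PR held 99.96% of these counts, and M6PR itself had between 69 and 134.

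RBBP4, a histone-binding subunit of PRC2 and of other complexes, had the next highest count. It lies on chromosome 1 from 32651142 to 32686211 on the plus strand, tail to tail with SYNC. The counts of 367, 738 and 530 in the knockdown enclosed the 383, 598 and 522 of the controls. Of its 19 transcripts, the 8 that overlap SYNC held 99.8%. PCGF2, a PRC1 subunit that pairs with the RING protein, lies on chromosome 17 from 38733898 to 38749817 on the minus strand and overlaps CISD3 at its 3′ end. All 7 PCGF2 transcripts overlap CISD3. PCGF2 had between 214 and 275 counts and 170 TPM (SD 30.1, n = 6), while CISD3 had between 4 and 14 counts and 3.46 TPM. SMARCD3 showed the same arrangement with CHPF2, at 71.0 TPM (SD 26.2, n = 6) for SMARCD3 and 6.83 TPM for CHPF2. In both pairs the member was assigned the higher level per length.

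The member did not have the higher level in every such pair. SMARCC2, a core scaffold, overlaps the myosin light chain gene MYL6 at its 3′ end and had 75.7 TPM (SD 11.6, n = 6) against 583 TPM for MYL6, with 39.5% of SMARCC2 counts on transcripts that reach MYL6. KDM2B, which brings a variant PRC1 to unmethylated CpG islands, had 29.7 TPM (SD 1.69, n = 6) against 115 TPM for the ubiquitin ligase gene RNF34. For KDM2B, the 6 of 18 transcripts that overlap RNF34 held 67.7% of the counts. PHF10, the polybromo PHD finger subunit, was the higher of its pair, with 168 TPM (SD 31.3, n = 6) against 30.03 TPM for C6orf120 on its other strand. The 3 of 6 PHF10 transcripts with an overlap held 91.95% of the counts.

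The counts of these genes and of further members with a coding gene at their 3′ end were as follows. SMARCD3 had 50, 94 and 69 counts in the knockdown and 71, 64 and 73 in the controls, which overlap. PCGF2 had 216, 232 and 247 counts in the knockdown and 249, 214 and 275 in the controls, also without a gap between groups. PHF10 had 271, 378 and 286 counts in the knockdown and 330, 259 and 296 in the controls, with knockdown replicate 2 the highest library. SMARCC2 had 153, 111 and 103 counts in the knockdown and 140, 101 and 145 in the controls. KDM2B had 139, 114 and 121 counts in the knockdown and 125, 128 and 138 in the controls. In all of these the groups lay among each other. PBRM1, the polybromo protein that reads acetylated histones, had 115, 92 and 73 counts in the knockdown and 93, 83 and 70 in the controls, with 41.6% on transcripts overlapping UQCC5. RBBP7 had 113, 81 and 90 counts in the knockdown and 106, 72 and 108 in the controls, with 20.9% overlapping TXLNG. SMARCB1 had 3, 4 and 9 counts in the knockdown and 13, 6 and 8 in the controls, with 22.9% overlapping DERL3. These 3 also meet their neighbour tail to tail.

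Several of the remaining members above 20% overlap a non-coding gene, and PCGF3-AS1, MIR762HG, LBX2-AS1 (opposite PCGF1), ENSG00000255856 (opposite BCL7A) and ENSG00000288809 (opposite EED) had no quantified transcript. ACTL6A also overlaps the mitochondrial ribosomal protein gene MRPL47, which had between 11 and 26 counts. PCGF3 had 436, 292 and 275 counts in the knockdown and 338, 307 and 333 in the controls, and 88.99% of them lay on overlapping transcripts. BCL7C had 172, 143 and 109 counts in the knockdown and 144, 137 and 145 in the controls, and ACTL6A had 68, 57 and 64 counts in the knockdown and 77, 67 and 57 in the controls. Both encode small or actin-like subunits shared by SWI/SNF forms. BCL7A had 86, 70 and 69 counts in the knockdown and 78, 75 and 76 in the controls, and EED had 8, 11 and 11 counts in the knockdown and 19, 7 and 16 in the controls, with 96.9% of EED counts on 2 of its 11 transcripts. BICRA had 59, 52 and 39 counts in the knockdown and 48, 41 and 57 in the controls. Groups of these genes overlapped too.

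Shares stayed within narrow bounds between libraries for the genes with most counts, from 99.8% to 100% for PHC1 and from 99.7% to 100% for RBBP4. They were wide for several others, from 0% to 47.7% for SMARCB1 and from 44.6% to 84.85% for PCGF1. For BICRA they ran from 21.8% to 53.95%, and for RBBP7 from 8.47% to 38.0%.

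Some members drew counts mainly from transcripts annotated as retained introns, which keep an intron and are not given a protein product. They included SMARCD3, RBBP7, SMARCC2, PCGF1 and PBRM1, which also had over 20% of their counts on overlapping transcripts. For 15 members retained-intron transcripts held over 50% of the counts. For 17 the leading transcript was of this kind, against 35 with a protein-coding leading transcript and 3 with another kind. DPF2, the canonical-complex PHD finger subunit expressed in most tissues, had 99.1% of its counts there, its relative DPF1 97.8%, PCGF6 86.0% and EZH1, a histone methyltransferase of PRC2, 82.1%. BAP1, the catalytic subunit of PR-DUB, had 73.7%. Over the 56 genes together the share was between 12.9% and 21.0% of counts in a library. For all genes it was between 11.1% and 14.1%, below the members in every library. Annotation differed too, since retained introns were 24.2% of the members' quantified transcripts and 17.25% of those of all genes. How many of all genes had such a leading transcript, or over 50% of counts on retained introns, was not counted. Without the leading genes the shares of counts were between 28.9% and 41.0% for the members (the 4 with most counts left out) and between 16.0% and 18.5% for all genes (the 6 with most counts left out). Each of the 4 members left out had at most 0.26% of its counts on retained introns, so that their removal raises the members' share by construction. The highest member share, 21.0%, was that of knockdown replicate 1, in which the share on overlapping transcripts was the lowest, 66.0%. The other 5 libraries held between 12.9% and 15.2% on retained introns and between 71.4% and 76.2% on overlapping transcripts.

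**Figure D2:**
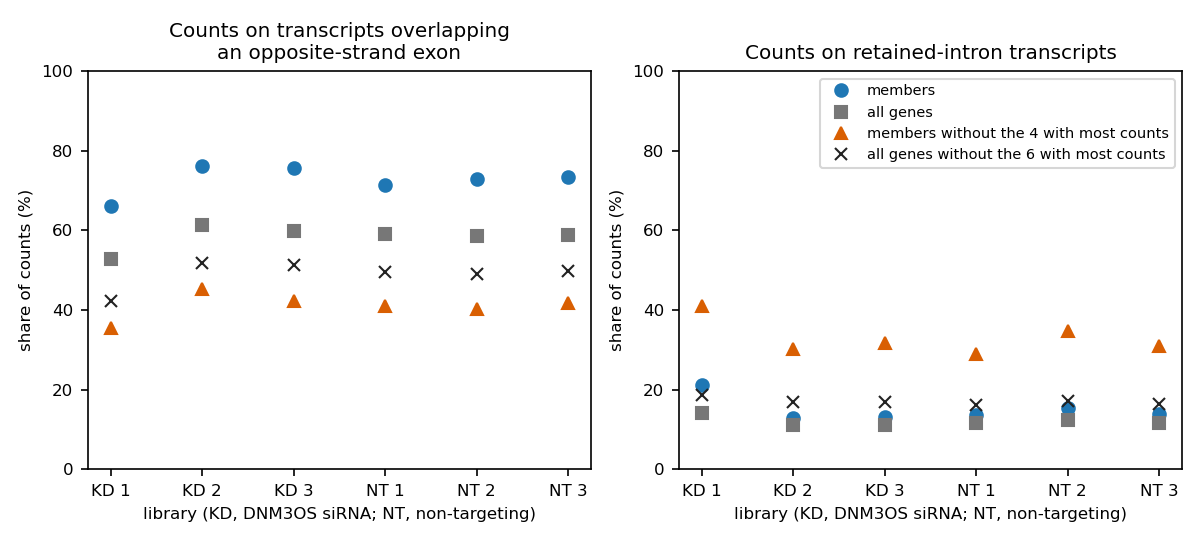
Share of counts (%) in each of the 6 libraries on transcripts overlapping an opposite-strand exon (left) and on retained-intron transcripts (right), 1 point per library, for the members and for all genes, each also without its leading genes (4 and 6). On the left the members lie above all genes, and without the leading genes below them, and on the right the members lie above in both comparisons.

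Per length, the levels of the members spanned from 0 to 256 TPM, with a median of 20.5 TPM against 1.495 TPM for all 34834 genes, of which 12086 were at 0 in every library. The 11814 genes with enough counts to be tested below, a set chosen by count unlike the 56 members, had a median of 20.7 TPM. The SWI/SNF members had a median of 21.7 TPM, PRC1 of 22.5, PRC2 of 14.01 and PR-DUB of 3.62. BRD7 led with 256 TPM (SD 24.3, n = 6), followed by PHC1 with 208 (SD 38.2), PCGF2 with 170 (SD 30.1), PHF10 with 168 (SD 31.3) and ACTL6A, the actin-like subunit of dividing cells, with 113 (SD 21.7). The ranges of PCGF2, from 145 to 220 TPM, and of PHF10, from 130 to 223 TPM, overlapped almost completely. At the other end, ACTL6B, the neuronal counterpart of ACTL6A, had 0 counts in every library, where 3 counts, the limit that a count of 0 allows, would be between 1.395 and 2.105 CPM. This limit covers counting error only. BICRAL had at most 2 counts and RING1 at most 2.

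**Figure D3:**
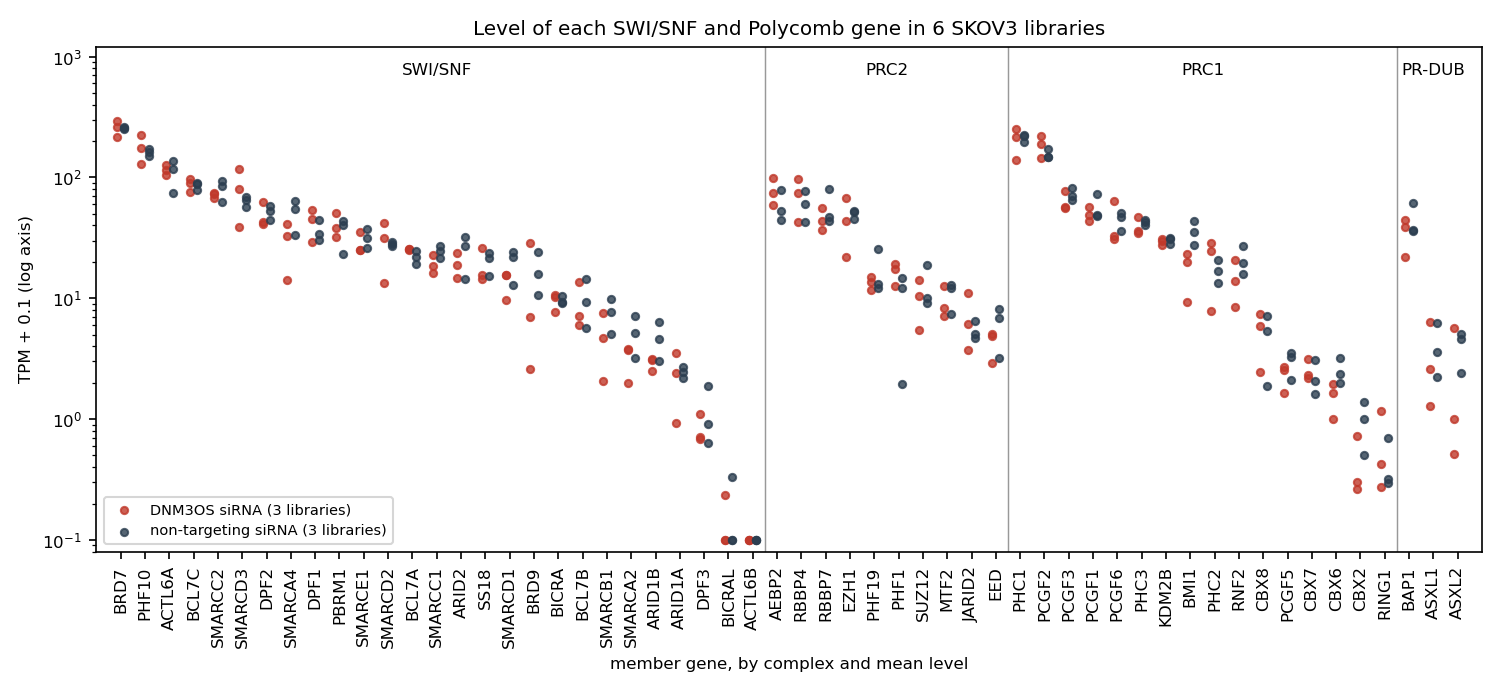
TPM + 0.1 (log axis) of each of the 56 genes in the 3 DNM3OS siRNA libraries and the 3 non-targeting libraries, 1 point per library, grouped by complex and ordered by mean. Levels run from BRD7 at 256 TPM to ACTL6B at 0, and the points of both groups lie among each other for nearly every gene.

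Related subunits, most of them alternatives for the same place in a complex, were compared within libraries, as log2 ratios of TPM (pseudocount 0.1), over 22 pairs. An exact sign-flip permutation test over the 6 libraries (two-sided, smallest possible p of 0.03125) was adjusted by Benjamini-Hochberg over the pairs. For 15 pairs the same gene was higher in 6 of 6 libraries, and these 15 had an adjusted p of 0.0458 in this exact test. The remaining 7 had adjusted p-values from 0.121 upwards in the same exact test.

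Among the SWI/SNF motors, SMARCA4 stood above SMARCA2. SMARCA4 had 14.1, 41.4 and 32.7 TPM in the knockdown and 55.02, 33.5 and 63.9 in the controls, and SMARCA2 1.90, 3.72 and 3.66 against 7.06, 5.04 and 3.13. Every SMARCA4 value exceeded every SMARCA2 value, with a mean log2 ratio of 3.23 (SD 0.59, n = 6, exact permutation test, adjusted p = 0.0458). Neither gene has a quantified transcript that overlaps an exon on the other strand, so that leaving such transcripts out cannot change the ratio. SMARCA2 rested on between 3 and 10 counts a library.

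ARID1A and ARID1B, the alternative DNA-binding subunits of the canonical complex, were both low. ARID1A, on chromosome 1 from 26693236 to 26782104, had 0.8296, 2.30 and 3.43 TPM in the knockdown and 2.07, 2.58 and 2.34 in the controls, from between 6 and 16 counts. ARID1B had 2.41, 3.02 and 3.002 TPM against 4.47, 2.91 and 6.31, from between 22 and 43 counts. ARID1B was higher in 5 of 6 libraries, and the mean log2 ratio of ARID1A to ARID1B of -0.71 (SD 0.68, n = 6) had an adjusted p of 0.121 in the exact permutation test. Transcripts with the printed ARID1B stretch or another overlap held 97.3% of ARID1B counts, and without them ARID1B was left with 0.5754 TPM and lay below ARID1A, by a ratio that depends on the pseudocount. ARID2, which takes this place in the polybromo complex, had between 14.41 and 32.15 TPM, from 80, 44 and 51 counts in the knockdown and 79, 50 and 55 in the controls.

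Of the scaffold pair, SMARCC2 was higher than SMARCC1, by a log2 ratio of SMARCC1 to SMARCC2 of -1.80 (SD 0.22, n = 6, exact permutation test, adjusted p = 0.0458). Without overlapping transcripts this ratio was -1.59 (adjusted p = 0.0505, exact permutation test). Retained introns held 60.5% of SMARCC2 counts and 68.0% of SMARCC1 counts, and overlapping transcripts 39.5% of SMARCC2 counts. Among the SMARCD subunits the order was SMARCD3 with 71.0 TPM, SMARCD2 with 28.3 and SMARCD1 with 16.5. SMARCD3 exceeded SMARCD2 in 6 of 6 libraries, while SMARCD1 and SMARCD2 changed places between libraries (adjusted p = 0.121, exact permutation test). Without overlapping transcripts SMARCD2 stood above SMARCD3, at a log2 ratio of 1.83. BCL7C with 86.7 TPM exceeded BCL7A with 23.6, and BCL7A exceeded BCL7B with 9.23 in 6 of 6 libraries. Of these 3 small subunits, BCL7C and BCL7A had 96.4% and 83.5% of their counts on overlapping transcripts and BCL7B none. Without those transcripts the log2 ratio of BCL7B to BCL7C went from -3.31 to -0.23 (adjusted p = 0.656, exact permutation test) and that of BCL7A to BCL7B from 1.43 to 0.75 (adjusted p = 0.123, exact permutation test).

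BRD7 exceeded BRD9, the bromodomain subunit of the non-canonical complex, by a log2 ratio of 4.49 (SD 1.16, n = 6, exact permutation test, adjusted p = 0.0458). BRD9 was among the most variable members, with 2.51, 6.90 and 28.8 TPM in the knockdown and 23.9, 10.45 and 15.65 in the controls. Without overlapping transcripts the order of BRD7 and BRD9 turned, to -6.82, a value set by the pseudocount because BRD7 then had 0 TPM. PHF10 exceeded DPF2 by a log2 ratio of DPF2 to PHF10 of -1.74 (SD 0.48, n = 6), which also turned without overlapping transcripts, to 3.22. In the group of SS18, a coactivator subunit, and the BICRA proteins, SS18 had 19.3 TPM (SD 5.04, n = 6) and BICRA 9.48 (SD 1.11). SS18 had 37, 43 and 35 counts in the knockdown and 42, 33 and 54 in the controls, and BICRAL had 1, 0 and 0 counts in the knockdown and 2, 0 and 0 in the controls. DPF3, the muscle and heart relative of DPF2, had 5, 2 and 2 counts in the knockdown and 2, 6 and 3 in the controls. SMARCB1, a core subunit lost in rhabdoid tumours, was at 6.04 TPM from at most 13 counts. SMARCC1 had 21.7 TPM, and SMARCE1, another core subunit, had between 116 and 154 counts with 0.497% on overlapping transcripts.

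In PRC1, RNF2, the main E3 ligase subunit, exceeded RING1 in 6 of 6 libraries. RING1 had 0, 0 and 2 counts in the knockdown and 0, 0 and 1 in the controls, while RNF2 had at least 10. The PCGF proteins, which define the PRC1 variants, fell in the order PCGF2 (170 TPM), PCGF3 (67.7), PCGF1 (53.15), PCGF6 (43.5), BMI1 (26.4) and PCGF5 (2.53). PCGF6 had between 13 and 31 counts a library and PCGF5 between 15 and 26. The leading PCGF6 transcript, a retained intron with 86.0% of its counts, has an effective length of 342.6 bases, and that of PCGF5 6862. The places of PCGF6 and PCGF5 in this order thus depend on the transcripts that held their counts. PCGF2 exceeded BMI1 at a log2 ratio of BMI1 to PCGF2 of -2.81 (SD 0.80, n = 6), and PCGF3 exceeded PCGF5 at 4.72 (SD 0.46, n = 6), each with an adjusted p of 0.0458 in the exact permutation test. Without overlapping transcripts the ratio of PCGF3 to PCGF5 was 2.81 (adjusted p = 0.0505, exact permutation test). No PCGF2 transcript was free of overlap, so that no ratio without overlap could be formed for that pair. The CBX proteins, which read methylated histone H3, were low, with 4.90 TPM for CBX8, 2.29 for CBX7, 1.93 for CBX6 and 0.5975 for CBX2. CBX6 and CBX7 did not hold 1 order (adjusted p = 0.378, exact permutation test), and CBX8 exceeded CBX2 in 6 of 6 libraries from at most 8 counts each. CBX8 had 2, 5 and 5 counts in the knockdown and 5, 2 and 8 in the controls, and CBX2 had 1, 1 and 3 counts in the knockdown and 5, 2 and 7 in the controls. Counts of both were thus equal in control replicates 1 and 2. The leading CBX8 transcript has an effective length of 621.5 bases and that of CBX2 4488, so that their order in TPM depends on length. PHC2 had 16, 13 and 18 counts in the knockdown and 17, 15 and 23 in the controls, and PCGF5 had 15, 19 and 19 counts in the knockdown and 17, 26 and 19 in the controls. PHC1 exceeded PHC2 at 3.57 (SD 0.43, n = 6, exact permutation test, adjusted p = 0.0458), and without overlapping transcripts PHC1, left with 0.9183 TPM, lay below PHC2, by an amount that depends on the pseudocount. PHC3 had 40.85 TPM (SD 4.97, n = 6) with no overlapping transcript and exceeded PHC2, at 18.5 TPM, in 6 of 6 libraries.

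In PRC2, the histone chaperones RBBP4 and RBBP7 had 65.8 and 51.1 TPM and changed places between libraries (log2 ratio 0.34, SD 0.71, n = 6, exact permutation test, adjusted p = 0.326). Without overlapping transcripts RBBP4 was left with 1.984 TPM and lay below RBBP7 at 43.4 TPM, by a log2 ratio that depends on the pseudocount. EZH1 had 47.1 TPM (SD 15.1, n = 6), the core scaffold SUZ12 11.3 (SD 4.64) and EED, which reads the PRC2 mark, 5.07 (SD 2.04). Retained introns held 82.1% of EZH1 counts and 53.96% of SUZ12 counts. Among the accessory subunits AEBP2 was highest with 67.7 TPM (SD 19.7, n = 6), followed by PHF19, PHF1 and MTF2, the Polycomb-like proteins, with 15.1, 12.9 and 9.96 TPM, and by JARID2, which helps bring PRC2 to DNA, with 6.10. The leading AEBP2 transcript, with 53.2% of its counts, is short, with an effective length of 351.6 bases. JARID2 had 40, 25 and 21 counts in the knockdown and 43, 22 and 31 in the controls. The 3 Polycomb-like genes had no fixed order, with adjusted p-values of 0.153 for MTF2 against PHF19 and 0.781 for PHF1 against MTF2 in the exact permutation test. ASXL1 and ASXL2, the partners of BAP1, had few counts and were each higher in 3 of 6 libraries. ASXL2 had 8, 4 and 7 counts in the knockdown and 20, 6 and 5 in the controls, and ASXL1 at most 9. BAP1 was the highest of PR-DUB with 39.7 TPM (SD 12.8, n = 6).

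**Figure D4:**
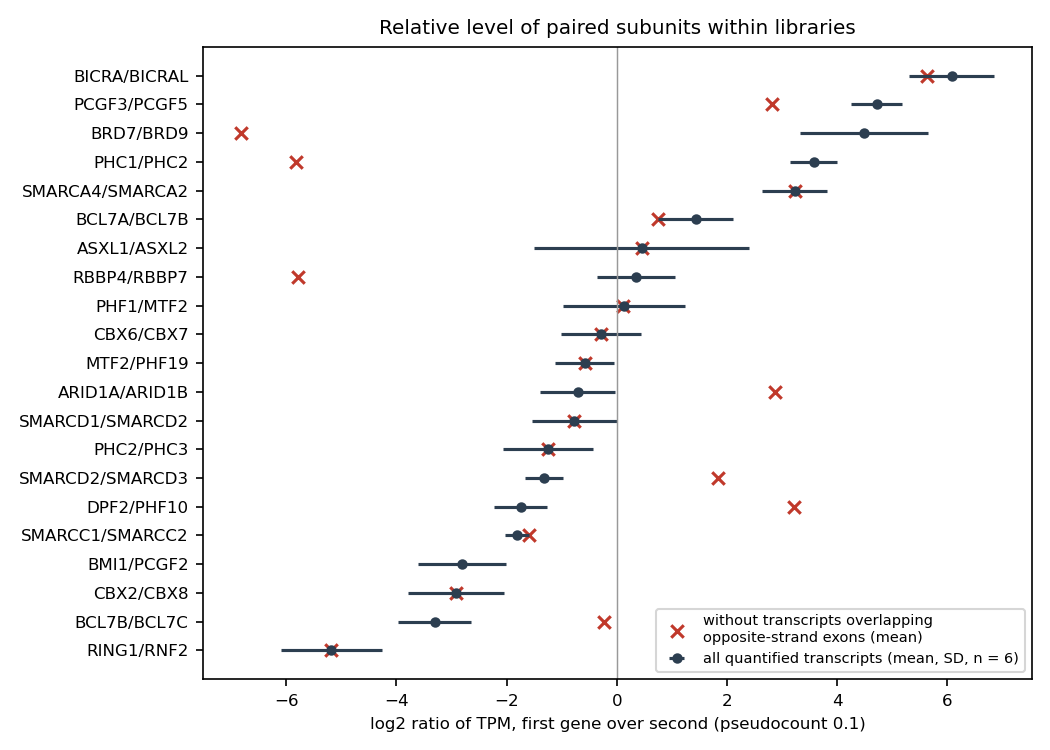
Mean log2 ratio of TPM (pseudocount 0.1) of the first over the second gene of 21 pairs, with the SD over 6 libraries as bars, and the same mean without transcripts that overlap opposite-strand exons as crosses; ACTL6A/ACTL6B is left out because ACTL6B is at 0, and BMI1/PCGF2 has no cross because PCGF2 has no other transcript. For BRD7/BRD9 the circle is at 4.49 and the cross at -6.82, on opposite sides of 0.

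After DNM3OS knockdown no member changed by the study's criterion. Of the 56 genes, 45 had enough counts to be tested, and 0 were called by edgeR's exact test at a 2-fold change and an adjusted p below 0.05. In the background of all 11814 tested genes, 1 gene or 0.00846% was called lower and 0 genes or 0% higher. The study, using edgeR at these thresholds, reported several pathways enriched among genes lower in the knockdown. Its outcome over all genes thus differed from the one here, and the reason was not tested. At an unadjusted p below 0.05 in the exact test, 0 members and 345 genes or 2.92% of the background passed. By edgeR's quasi-likelihood test and by DESeq2 the members at this level were also 0, against 346 and 192 genes. The exact test gave 1 member with length-scaled TPM counts (435 genes) and 1 with protein-coding transcripts only (264 genes). Leaving out single libraries gave from 0 to 3 members, the 3 without control replicate 2 (897 genes). Leaving out both knockdown replicate 1 and control replicate 2, chosen after the data were seen, gave 4 members and 1060 genes. The adjusted p of every tested member was 1 in the exact test. The 11 members not tested were ACTL6B, ASXL1, ASXL2, BICRAL, CBX2, CBX7, CBX8, DPF3, RING1, SMARCA2 and SMARCB1, with at most 20 counts in any library.

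Fitted log2 fold changes of the 45 ran from -0.96 for BMI1 to 0.98 for PHF1, with 34 below 0, or 75.6%, against 49.4% of all tested genes. The median was -0.09, against 0.004173 for all tested genes. Both values rested on knockdown replicate 1. Without it, 22 of 45 members lay below 0 and the median was 0.001249. The median difference of the tested members from the control mean was -0.28 in knockdown replicate 1, -0.05 in replicate 2 and 0.03 in replicate 3. By complex the medians were -0.09 for SWI/SNF (22 genes tested), -0.01 for PRC2 (10 genes) and -0.19 for PRC1 (12 genes), with BAP1 the only tested gene of PR-DUB.

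**Figure D5:**
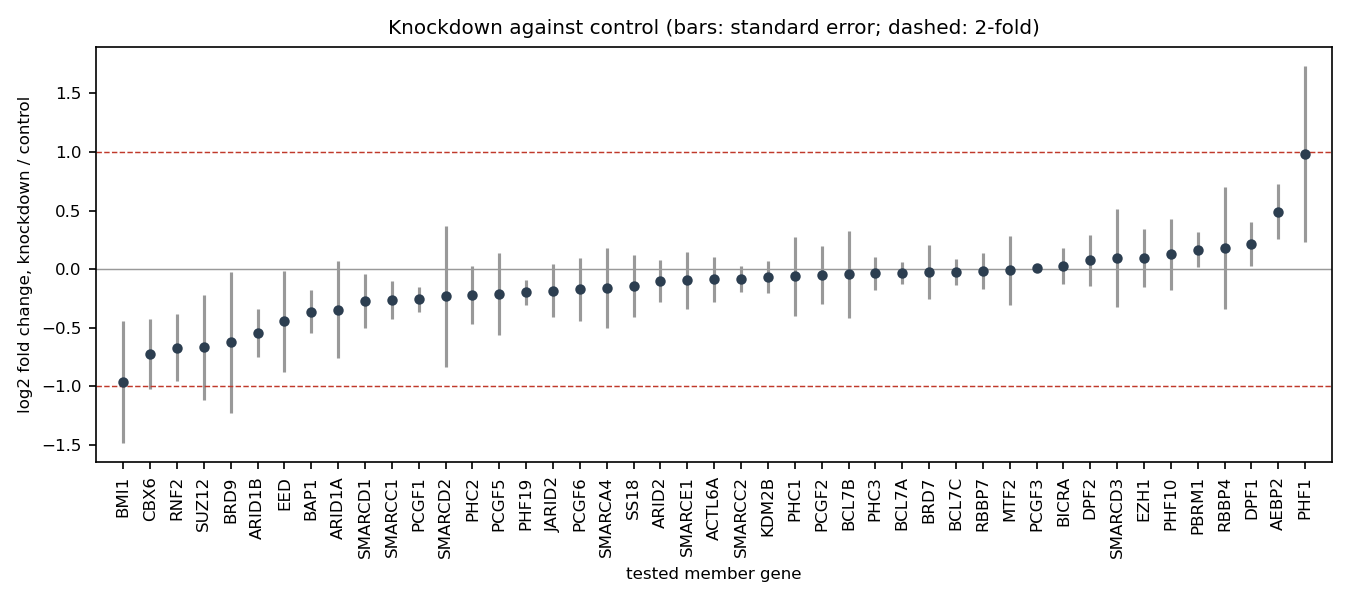
Log2 fold change (knockdown over control) of the 45 tested members, ordered by value, with the standard error from the spread of log2 CPM between replicates as bars and dashed lines at a 2-fold change. No point lies outside the dashed lines; BMI1 at -0.96 and PHF1 at 0.98 come closest.

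BMI1, the PRC1 subunit known for silencing the CDKN2A locus, had 5, 15 and 11 counts in the knockdown and 24, 17 and 22 in the controls, and all knockdown values lay below all control values. It averaged 6.725 ± 3.996 CPM in the knockdown (SD, n = 3) and 12.6 ± 1.31 CPM in the controls (SD, n = 3). The log2 fold change of -0.96 had a standard error of 0.52 and an unadjusted p of 0.0562 in edgeR's exact test, with an exact permutation p of 0.1, the smallest that 3 against 3 libraries allow. Without knockdown replicate 1 the BMI1 value was -0.48, and over all single libraries left out it ran from -1.41 to -0.48. BAP1 was the other member whose groups did not overlap in CPM, although its counts did, with 49, 25 and 30 counts against 43, 48 and 39. On the CPM scale it had 20.2 ± 3.04 in the knockdown and 26.3 ± 4.52 in the controls (SD, n = 3), a log2 difference of -0.36 with a standard error of 0.18, which ran from -0.46 to -0.21 without single libraries (-0.21 without control replicate 2). Groups without overlap on the CPM scale were found for 2 of 45 members on the lower side and 0 on the higher side. In the background 3.56% of the tested genes had all knockdown values below the controls and 4.42% above, so that the members' count was near the background.

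ARID1B had 27, 22 and 24 counts in the knockdown and 43, 25 and 39 in the controls, with a log2 fold change of -0.55 (SE 0.20, unadjusted p = 0.0993 from edgeR's exact test). On the CPM scale its groups overlapped. ARID1A had 9, 6 and 16 counts against 13, 12 and 15, and its log2 fold change of -0.34 had a standard error of 0.41. For both a difference was not detectable at this depth. SMARCA4 had 86, 93 and 102 counts against 133, 69 and 123, with a log2 fold change of -0.16 (SE 0.34).

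Of the other members with the smallest unadjusted p-values, PHF1 had 23, 10 and 17 counts against 10, 1 and 14, a log2 fold change of 0.98 (SE 0.75), and the control with 1 count was replicate 2. Without control replicate 3 the value for PHF1 was 1.55, and without single libraries it was at least 0.50. AEBP2 had 60, 36 and 46 counts against 32, 40 and 27, at 0.49 (SE 0.23). Both are PRC2 accessory subunits with a higher mean in the knockdown, and in both the groups overlapped on the CPM scale. SUZ12 had 38, 20 and 16 counts against 64, 20 and 31, at -0.67 (SE 0.45), with 22.6 ± 12.3 CPM in the controls (SD, n = 3). Control replicate 1 was the highest, and without single libraries the SUZ12 value ran from -0.92 to -0.135.

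In PRC1, RNF2 had 11, 10 and 12 counts in the knockdown and 23, 11 and 19 in the controls, with a fitted value of -0.67 (SE 0.29). CBX6 had 13, 12 and 6 counts against 23, 12 and 16, at -0.73 (SE 0.30). PCGF1 had 35, 31 and 25 counts against 40, 33 and 35, at -0.26 (SE 0.11). In these genes the groups overlapped. BRD9 had 7, 9 and 23 counts against 28, 15 and 21, at -0.62 (SE 0.60), and leaving out single libraries moved it from -1.49 to -0.19. Unadjusted p-values for these 10 genes ran from 0.0562 to 0.380 in edgeR's exact test.

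Among the members with most counts, PCGF3 had 197.7 ± 4.93 CPM in the knockdown and 196.5 ± 4.26 CPM in the controls (SD, n = 3), a log2 fold change of 0.01 with a standard error of 0.03, the smallest of the tested members. BRD7 had 730 ± 186 and 743 ± 13.8 CPM, and PHC1 696.5 ± 248 and 726 ± 42.3 CPM (SD, n = 3). In both the spread was wider in the knockdown, where replicate 1 was lowest. RBBP4 had 347 ± 165 CPM in the knockdown and 306 ± 86.7 CPM in the controls, with the lowest values in knockdown replicate 1 and control replicate 1. When knockdown replicate 1 and control replicate 2, which deviated together from their groups, were both left out, RBBP4 was at 0.75 with an adjusted p of 0.0313 in edgeR's exact test, less than 2-fold. This exclusion was chosen after the data were seen.

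The neighbouring chromatin genes gave no call either. Of 25 further SWI/SNF and Polycomb partners, 13 were tested and 0 called, with 7 lower and 6 higher means and a median log2 fold change of -0.08. Of 41 genes of the CHD, ISWI, INO80 and related remodellers, 34 were tested and 0 called, with 25 lower, 9 higher and a median of -0.19. Of 17 Trithorax and COMPASS genes, which methylate histone H3 at active genes and oppose Polycomb, 14 were tested and 0 called, with 5 lower, 9 higher and a median of 0.04. Unadjusted p-values below 0.05 were found for 1, 2 and 0 genes of these lists, against 2.92% of the background.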

How the data were processed

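Kallisto 0.43.0 was run by the authors on paired reads against Ensembl transcripts of GRCh38. The deposited files give for each of 173259 transcripts an estimated count, not normalized, a TPM that the authors' tool scaled over all transcripts, and an effective length; the strand option is not given in the sources used here. Identifiers were matched to GENCODE release 44 (GRCh38), which held 155518 of them, and the other 17741, with between 4.78% and 6.38% of a library's counts, were not used. Estimated counts and TPM were summed per gene, and counts rounded. Genes passing filterByExpr (minimum count 10) were normalized by TMM and compared with the exact test of edgeR 4.0.16 in R 4.3.3, the test the study names, with Benjamini-Hochberg adjustment over all 11814 genes. A gene was called at a 2-fold change and an adjusted p below 0.05. Standard errors came from log2 CPM (prior count 2). Exons overlapping by at least 1 base on the opposite strand were found with bedtools 2.31.1. Permutation tests were exact (SciPy 1.17.1). Printed sequences came from hg38 within coding exons outside every annotated UTR. The members and lists were chosen with earlier results of these data known. Members described with values in each library were the highest and lowest of each family, the 10 with the smallest unadjusted p, those without overlap between groups and those with over 20% of counts on overlapping transcripts. ARID1A, SMARCA4 and other genes added for context were named after their values were seen. Scripts were tested on simulated data. Alternatives are given at the end.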

Additional observations from a re-analysis of the deposited data

How the results depend on the processing

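Under every alternative run, 0 members were called, including length-scaled TPM counts, transcripts without opposite-strand overlap, each library left out and both knockdown replicate 1 and control replicate 2 left out. Over all genes, 1 was lower and 0 higher. DESeq2 1.42.0, the quasi-likelihood test of edgeR and the set of non-overlapping transcripts each gave 0 lower. Keeping all genes gave 2 lower, requiring 1 CPM in 3 samples gave 2, and length-scaled TPM counts gave 3. With protein-coding transcripts only, 3 were lower and 2 higher, and without both doubted libraries, chosen after seeing the data, 31 lower and 8 higher. Leaving out single libraries gave from 0 to 3 lower and from 0 to 1 higher, and moved the members' median log2 fold change from -0.16 to 0.001249. With the replicate number as a block the quasi-likelihood test gave 0 lower. Deviations of same-numbered knockdown and control libraries correlated at -0.40, -0.34 and 0.23, so that the numbers were not taken as pairs; knockdown replicate 1 correlated best with control replicate 2, at 0.53.

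With protein-coding transcripts only, the log2 fold change of PCGF1 was 0.00096, against -0.26 in the main fit, and that of BMI1 -0.67, against -0.96. Others moved further below the controls: SUZ12 to -1.26 from -0.67, BAP1 to -0.92 from -0.36 and RBBP7 to -1.10 from -0.01. The values of these genes thus depended on which transcripts were counted. Without overlapping transcripts 0 of 21 subunit pairs passed the threshold, because fewer pairs reached the smallest p and the adjusted value then rose to 0.0505, and 6 pairs turned: ARID1A/ARID1B to 2.88, SMARCD2/SMARCD3 to 1.83, BRD7/BRD9 to -6.82, DPF2/PHF10 to 3.22, RBBP4/RBBP7 to -5.79 and PHC1/PHC2 to -5.83. Of these, the sizes for ARID1A/ARID1B, BRD7/BRD9, RBBP4/RBBP7 and PHC1/PHC2 depend on the pseudocount, since 1 gene of each pair is then near 0. With 5 libraries the smallest exact p is 0.0625, so that 0 pairs can pass. Leaving out single libraries took PHF1/MTF2 from -0.08895 to 0.54 and ASXL1/ASXL2 from -0.19 to 0.97, and turned no other pair. With between 3 and 43 counts a library for the ARID1 genes, SMARCA2 and SMARCB1, depth limits what can be seen.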
